A study of Mus musculus with 4 samples.

Results

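The 39 Hox genes of the mouse were followed in RNA-seq of embryonic stomach. They were taken as every gene in the deposited table whose symbol is Hoxa, Hoxb, Hoxc or Hoxd followed by a number, which gave 39 of 51098 genes. Total RNA from stomachs of mouse embryos (stage E15.5) was sequenced after removal of ribosomal RNA. The design set 2 samples of the genotype Fgf9LacZ/LacZ, called Fgf9_null here, against 2 samples of the genotype Fgf9LacZ/+, called Fgf9_het here, so that both groups carry the LacZ allele of Fgf9, a secreted fibroblast growth factor, and no group without that allele was analysed. The sample titles abbreviate the heterozygous group as WT, and in both groups the samples are numbered 2 and 3. Whether a sample held 1 stomach or several is not given in the sources used here.

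Hox genes encode homeodomain transcription factors that give cells along the head-to-tail axis of the embryo their regional identity. In mammals they lie in the clusters Hoxa, Hoxb, Hoxc and Hoxd, and genes at matching positions of different clusters form a paralogue group that bears the same number. Genes at the 3′ end of a cluster, with low numbers, are in general switched on earlier and reach further towards the head than genes at the 5′ end, and in the gut mesoderm Hox genes are known to mark regional boundaries.

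In the annotation of GRCm38 the Hoxa cluster holds 11 genes on chromosome 6 (52155590 to 52260880, minus strand), and the Hoxb cluster holds 10 on chromosome 11 (96194316 to 96368256, plus strand). The Hoxc cluster holds 9 genes on chromosome 15 (102921103 to 103036852, plus strand), and the Hoxd cluster holds 9 on chromosome 2 (74668310 to 74765142, plus strand). The homeobox, the coding stretch of 180 bases for the DNA-binding homeodomain, was found as 1 unbroken exonic run in all 39 genes (GENCODE M21 transcripts, GRCm38). The homeobox of Hoxc4, the gene with the highest level per length of the Hoxc cluster, is printed beside that of its paralogue Hoxa4. Lower case gives the sequence 5′ to 3′ on the coding strand, and capitals mark the 15 bases, 5 codons, for the tryptophan-phenylalanine-glutamine-asparagine-arginine core of the DNA-recognition helix.
Hoxa4 homeobox, chr6:52190483-52190662, minus strand: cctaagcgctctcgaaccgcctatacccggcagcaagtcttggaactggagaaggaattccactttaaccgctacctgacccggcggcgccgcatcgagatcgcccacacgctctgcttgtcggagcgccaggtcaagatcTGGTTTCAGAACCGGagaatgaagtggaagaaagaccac
Hoxc4 homeobox, chr15:103035663-103035842, plus strand: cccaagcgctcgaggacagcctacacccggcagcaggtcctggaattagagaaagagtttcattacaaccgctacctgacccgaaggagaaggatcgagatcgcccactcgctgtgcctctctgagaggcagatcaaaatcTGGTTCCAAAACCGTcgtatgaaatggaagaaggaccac
These homeoboxes were 78.9% identical. The 3 homeoboxes of group 3 were 93.9% (Hoxa3 and Hoxb3), 93.3% (Hoxa3 and Hoxd3) and 92.8% (Hoxb3 and Hoxd3) identical. Over all clusters, 42 pairs of Hox genes of the same group had homeoboxes 67.2% to 93.9% identical (median 80.6%), and 699 pairs of different groups 46.1% to 88.9% (median 60.6%). Runs of 31 identical bases between transcripts were few outside annotated exon overlaps. Hoxd3 and Hoxd4, whose exons overlap by 388 bases, shared 358 such runs, and Hoxc5 and Hoxc10, whose exons overlap by 166, shared 138. The runs were counted from every base and overlap one another, so these counts do not number separate stretches. Reads from these shared stretches can be assigned to either gene.

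The Hox genes had the same counts under both genotype labels. In the replicate 2 columns of Fgf9_null and Fgf9_het, 35 of 39 Hox genes were equal within 0.001 reads, and the largest difference was 0.023 reads (Hoxd4). In the replicate 3 columns 32 of 39 were equal within 0.001 reads, and the largest difference was 1.24 reads (Hoxb2). The chi-square statistic of a pair of columns, divided by its degrees of freedom, was 2.19e-07 over 20 Hox genes for number 2 and 0.000196 over 22 for number 3. Columns of different number gave 1.63 over 21 Hox genes. Over the whole table it was 0.000792 and 0.00385 for columns of the same number and 5.49 to 5.5 for columns of different number, without Rn7s6, Rn7s1, Gm19220 and Gm26461, left out after their values were seen. With these 4 genes it was 4.46 and 4.64 for columns of the same number, and the 7SL RNA gene Rn7s1 took 2.71% of the counts of Fgf9_null replicate 2 and 1.32% of those of Fgf9_het replicate 2. Fgf9 itself had 133 reads under both labels of number 2 and 131 under both labels of number 3, which does not check the genotype, since reads from gene parts kept in the allele may be counted. Apart from these 4 genes, same-numbered columns thus differed by less than sampling noise. They were counted as 1 sample each, library 2 and library 3, and which genotype a library holds is not settled by the files.

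For the genotype comparison of the design, edgeR's quasi-likelihood test with Benjamini-Hochberg adjustment kept 19987 genes, 19 of them Hox genes. It called 0 of the 19 Hox genes, against 0% of all genes tested. All 19 had an adjusted p of 1, none had an unadjusted p under 0.05 (4 genes did in the whole table), and the largest difference of a Hox gene was 0.00245 on the log2 scale. DESeq2, which tested 27 Hox genes, and limma-voom called 0 Hox genes as well. So did edgeR with the replicate number as a block, which called 0.03% of all genes. This comparison sets each library against itself and measures no effect of Fgf9 on the Hox genes. All levels below are therefore means over the 2 libraries, given as CPM (estimated counts scaled to the library total) ± SD, n = 2, and they average over whatever genotypes the libraries hold.

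The detection floor was taken as 3 counts, which is 0.155 CPM in library 2 and 0.133 CPM in library 3. The mesenchymal gene Barx1, a transcription factor of the stomach, had 129 and 136 CPM, and the epithelial gene Cym, which encodes the stomach protease chymosin, had 4882 and 4502 CPM. All 5 stomach mesenchyme markers and all 5 stomach epithelium markers reached 1 CPM in each library. Summed by list, the stomach mesenchyme markers had 402 and 438 CPM and the stomach epithelium markers 5232 and 4853 CPM. Lists of neighbouring organs had lower sums. Single markers did not all follow this order. The mesenchyme marker Nkx2-5 (1.39 and 1.86 CPM) lay below the intestine marker Vil1 (22.7 and 22 CPM), which gave most of the intestine sum. The 5 intestine markers summed to 24.1 and 22.9 CPM, with Cdx1 at 0, the 4 spleen markers to 15.3 and 16.7, and the 5 pancreas markers to 7.47 and 7.93, with Ptf1a and Ins2 at 0. The 5 liver markers differed most, with 34.7 and 57.2 CPM.

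Of the 39 Hox genes, 16 reached 1 CPM in each library, which is 41% of the Hox genes beside 32.7% of all genes in the table. Among them were Hoxa2 to Hoxa5, Hoxb2 to Hoxb6, Hoxb8, Hoxc4, Hoxc5, Hoxd3, Hoxd4 and Hoxd8. Another 12 genes had no count in any column, and all of them belong to groups 10 to 13. The remaining 11 lay between, 4 with 3 reads or fewer in both libraries and 7 above that floor in at least 1 library. In tissue of mixed cells, fewer cells with a transcript and less transcript per cell cannot be told apart.

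**Figure D1:**
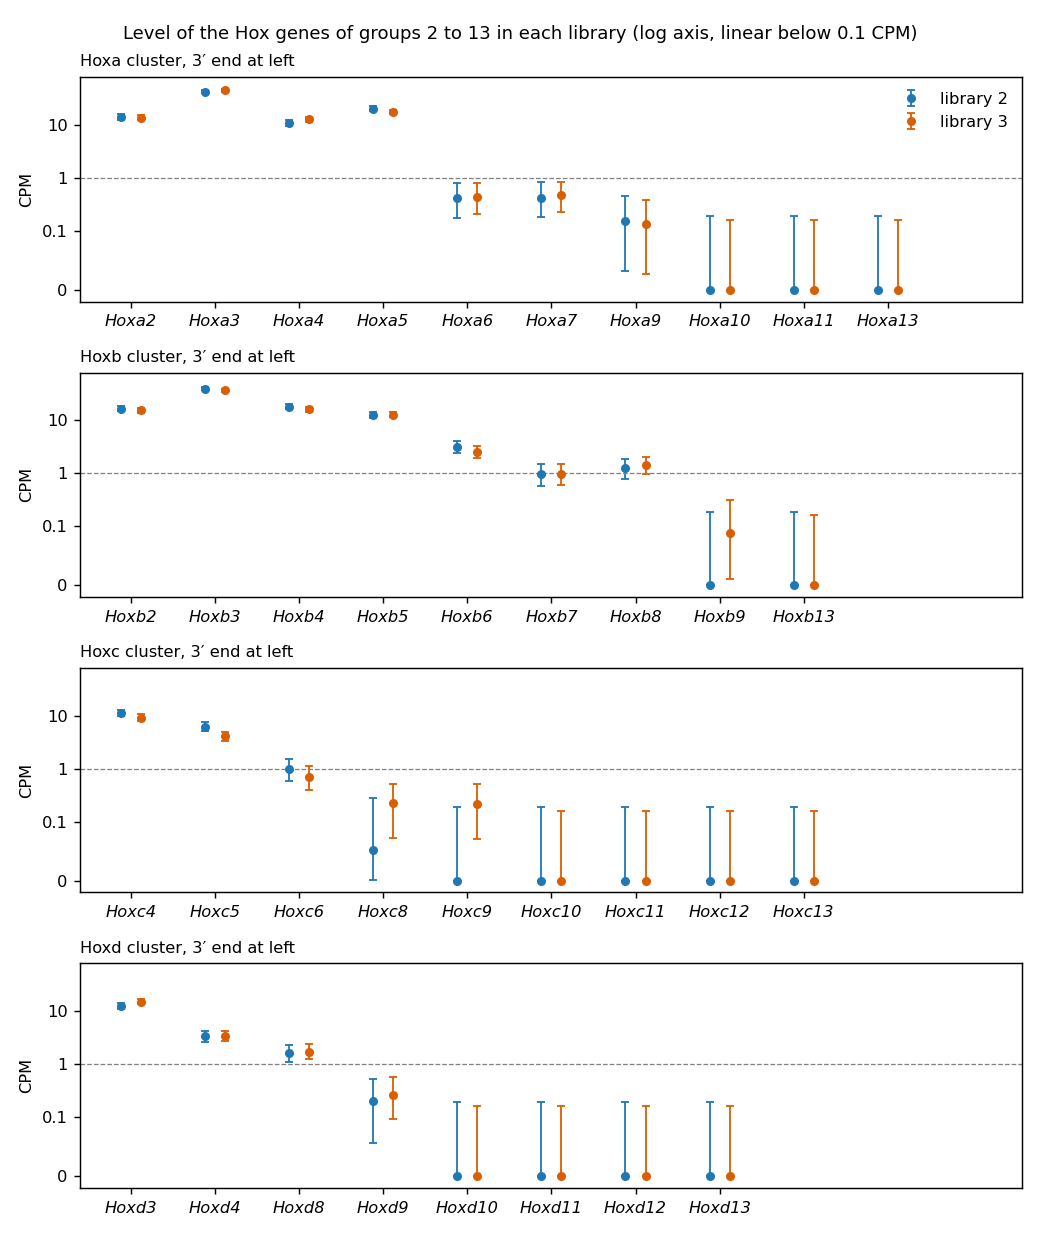
CPM (y, log axis that is linear below 0.1) of each of the 36 Hox genes of groups 2 to 13 (x) in library 2 (blue) and library 3 (orange), by cluster, with exact Poisson 95% intervals for counting error. The points of the 2 libraries lie within 1.53-fold for the genes at 1 CPM or more in each library. They lie further apart for some genes with few reads, such as Hoxc8 at 0.0516 and 0.222 CPM. The highest gene is Hoxa3 at 42.5 and 45.5 CPM, and the genes of groups 10 to 13 lie at 0.

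Together the 39 genes made up 220 CPM in library 2 and 214 CPM in library 3. The Hoxa cluster gave 90.5 and 92.3 CPM and the Hoxb cluster 92.5 and 86.9 CPM. The Hoxc cluster gave 18.6 and 14.6 CPM, and the Hoxd cluster 18 and 20.5 CPM. Hoxa and Hoxb thus supplied most Hox reads in both libraries. To compare genes, each level was divided by the median length of the gene's protein coding transcripts (CPM per kilobase). On that scale Hoxa held 47.4 ± 1.42% of the summed Hox level, Hoxb 39.1 ± 1.24%, Hoxd 7.31 ± 0.721% and Hoxc 6.18 ± 0.9%. The ranges of Hoxa (46.4% to 48.4%) and Hoxb (38.2% to 40%) over the libraries did not overlap per length. Hoxc (5.54% to 6.82%) and Hoxd (6.8% to 7.82%) did overlap.

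By median transcript length, the level was highest in group 3 in each of the 3 clusters that have such a gene. Group 3 held 46.6 ± 1.51% of the summed level per length with its 3 genes, group 4 held 17.3 ± 0.219% with 4, group 5 held 15.4 ± 0.964% with 3 and group 2 held 14.6 ± 0.42% with 2. Groups 6, 7 and 8 held 2.29 ± 0.295%, 1.14 ± 0.0461% and 1.81 ± 0.207%. The genes of groups 9 to 13, 16 in number, held 0.226 ± 0.119%. The genes of groups 6 to 13 thus held little of the summed level, though not every step along a cluster led downwards. By median length Hoxa5 was above Hoxa4, Hoxa7 above Hoxa6 and Hoxb8 above Hoxb7 in both libraries. The orders of Hoxa7 and Hoxa6 and of Hoxb8 and Hoxb7 turned by the longest coding transcript. Hoxb8 then had 0.469 and 0.538 CPM per kilobase, below Hoxb7 at 0.759 and 0.755. Hoxa7 has 725 bases by median and 2009 by longest transcript, while Hoxa6 has 874 by both. The Poisson intervals of either pair also overlap in each library, so the order within these pairs is not settled. Spearman's rho of paralogue number and level per length, across the 39 genes within 1 library, was -0.762 in library 2 and -0.793 in library 3. Genes of a cluster are not independent points, and the 12 genes at 0 weigh on this value.

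**Figure D2:**
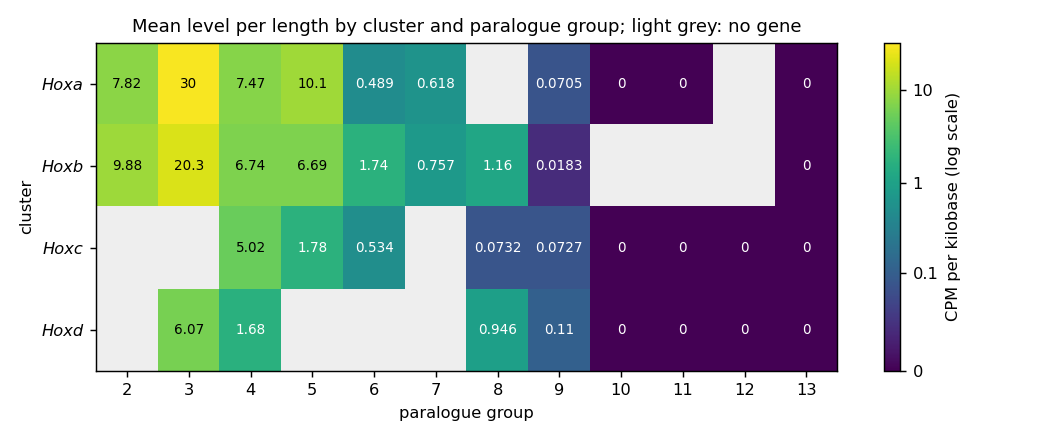
Mean CPM per kilobase over the 2 libraries (colour, log scale, and printed value) for each paralogue group from 2 to 13 (x) and cluster (y), with light grey where the cluster has no gene of that group. Hoxa3 (30) and Hoxb3 (20.3) are the highest squares, and every square of groups 10 to 13 is 0.

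The lead of group 3 depends on the lengths used. With all annotated exons of each gene merged, group 3 held 26.9 ± 1.15% and group 4 held 26.5 ± 0.195%, which overlap. With the longest coding transcript they held 35.1 ± 1.5% and 21.2 ± 0.0957%. For Hoxa3, the coding transcripts have a median length of 1469 bases, the longest has 2591 bases, and the merged exons come to 6014 bases, and the annotated gene (52169062 to 52213336) takes in Hoxa4, Hoxa5 and Hoxa6. Groups 1 to 3 held 61.9 ± 1.11% of the summed level and groups 4 to 8 held 37.9 ± 1.23% by median length, but 45% and 54.7% when merged exon lengths were used for all genes, so the order of these classes turned. By merged exon length Hoxa5 was the highest Hox gene and Hoxa3 the fifth. Hoxa3 was the highest by median length, by the longest coding transcript and in CPM without any length.

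Of group 1, whose genes pattern the hindbrain in the early embryo, Hoxb1 and Hoxd1 were at or under the floor. Hoxb1 had 0 and 1 reads, and Hoxd1 had 2 and 1 reads. Their 5′ neighbours Hoxb2 and Hoxd3 were far above 1 CPM in both libraries.

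Both genes of group 2, Hoxa2 and Hoxb2, which act in the hindbrain and the pharyngeal arches, were at similar levels in the 2 libraries. Hoxa2 stood at 14.1 and 13.6 CPM (13.9 ± 0.336). Hoxb2 had 323 and 350 reads (16.1 ± 0.801 CPM). Per kilobase Hoxb2 (10.2 and 9.53) lay above Hoxa2 (7.96 and 7.69) by median length. By merged exon length Hoxb2 (4.77 and 4.45) lay below Hoxa2, so their order is not settled. The antisense gene Hoxb3os covers 27.3% of the Hoxb2 exons, and the strand setting of the counting is not given in the sources used here, so reads of both strands cannot be told apart.

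Group 3 genes are known for the development of pharyngeal organs and the neck. Hoxa3 had 825 and 1028 reads, 42.5 and 45.5 CPM (44 ± 2.12), and was the most abundant Hox gene in both libraries. Hoxb3 followed with 39.5 and 37.2 CPM (38.4 ± 1.66), and Hoxd3 stood at 12.8 and 15.1 CPM (13.9 ± 1.63). Per kilobase the levels were 30 ± 1.44 for Hoxa3, 20.3 ± 0.878 for Hoxb3 and 6.07 ± 0.713 for Hoxd3 by median length, with no overlap between them. By merged exon length Hoxb3 (9.03 ± 0.39) lay above Hoxa3 (7.32 ± 0.353), and Hoxd3 (3.32 ± 0.39) was again the lowest. Among 29540 genes with counts, the 3 genes lay at percentiles 89.1, 83.7 and 65.7 of the level per length. These paralogues with similar homeoboxes thus differed in level. Other genes share their exons. Hoxb3os (105 and 109 reads) lies antisense to 52.9% of the merged Hoxb3 exons, and the gene model Gm28230 (54.4 and 34.4 reads) lies on the same strand over 53.1% of the Hoxd3 exons. The antisense genes Hoxaas2 (281 and 325 reads) and Gm29430 (47.3 and 46.1 reads) overlap 8.36% and 7.27% of the Hoxa3 exons.

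Group 4 has a gene in every cluster, and its members act in the hindbrain and neck. Hoxa4 stood at 11 and 12.8 CPM (11.9 ± 1.22), Hoxb4 at 18.3 and 16.3 (17.3 ± 1.48), Hoxc4 at 11.3 and 9.3 (10.3 ± 1.4) and Hoxd4 at 3.37 and 3.43 (3.4 ± 0.0463). Per kilobase Hoxa4 (6.93 and 8.01) and Hoxb4 (7.15 and 6.34) overlapped between the libraries, Hoxc4 (5.5 and 4.53) lay below both, and Hoxd4 (1.66 and 1.69) was the lowest. Hoxd4 shares 388 exon bases with Hoxd3, and Gm28230 covers 39.1% of its exons, so its count depends on how the authors' counting divided these reads.

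The members of group 5 include Hoxa5, which is required in mesenchyme of foregut-derived organs. Hoxa5 had 393 and 400 reads, 20.3 and 17.7 CPM (19 ± 1.77). Hoxb5 stood at 12.5 and 12.8 CPM (12.7 ± 0.23) and Hoxc5 at 6.29 and 4.12 CPM (5.2 ± 1.53). Per kilobase Hoxa5 (10.1 ± 0.945) overlapped with Hoxb2 (9.88 ± 0.492) and lay above Hoxb5 (6.69 ± 0.121) and Hoxc5 (1.78 ± 0.524).

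Levels fell between group 5 and group 6 in each of the 3 clusters that have both genes. In Hoxa the fall was 22.9-fold in library 2 and 18.6-fold in library 3 per kilobase, from Hoxa5 to Hoxa6, which had 8 and 10 reads (0.412 and 0.443 CPM). Each of these genes has 1 annotated coding transcript, of 1877 and 874 bases, so the choice between annotated lengths does not bear on this step. In CPM without any length the fall was larger, from 20.3 and 17.7 CPM at Hoxa5. In Hoxb the fall was 3.4-fold and 4.4-fold, to Hoxb6 at 3.2 and 2.53 CPM (2.86 ± 0.472). In Hoxc it was 3.47-fold and 3.14-fold, to Hoxc6 at 0.979 and 0.709 CPM. The sizes of the Hoxb and Hoxc falls are by median length and depend on it. Hoxb5 has 1895 bases by median and 2786 with merged exons, and Hoxc6 has 1581 and 2408. The homeoboxes of Hoxa5 and Hoxa6 lie 39.2 and 43 kb from that of Hoxa2, so the step in Hoxa falls between close neighbours. Over the clusters, 13 of the 15 genes of groups 1 to 5 reached 1 CPM in each library, and in groups 6 to 8 this held for 3 of 8.

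The promoters on either side of the Hoxa step are printed because these neighbours differed most among adjacent genes with more than 5 reads each. Each runs 5′ to 3′ from 250 bases before to 50 bases after the gene start (RefSeq, GRCm38.p6), and capitals mark every CG dinucleotide, the site of DNA methylation in mammals.
Hoxa5 promoter, chr6:52204538-52204837, minus strand: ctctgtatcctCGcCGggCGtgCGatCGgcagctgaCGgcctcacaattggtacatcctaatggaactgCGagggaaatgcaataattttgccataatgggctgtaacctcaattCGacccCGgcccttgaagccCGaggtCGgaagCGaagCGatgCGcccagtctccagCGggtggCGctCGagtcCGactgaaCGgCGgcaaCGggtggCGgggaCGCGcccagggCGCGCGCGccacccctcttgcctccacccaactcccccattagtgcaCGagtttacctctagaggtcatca
Hoxa6 promoter, chr6:52208623-52208922, minus strand: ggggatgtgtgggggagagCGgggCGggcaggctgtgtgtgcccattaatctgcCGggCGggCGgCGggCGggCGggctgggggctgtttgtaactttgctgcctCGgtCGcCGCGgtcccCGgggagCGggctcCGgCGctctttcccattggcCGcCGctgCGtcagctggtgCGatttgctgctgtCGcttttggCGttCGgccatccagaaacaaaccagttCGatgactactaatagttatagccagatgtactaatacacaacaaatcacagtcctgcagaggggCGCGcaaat
The Hoxa5 promoter holds 29 CG dinucleotides and the Hoxa6 promoter 26, and 12.9% and 16.9% of 32851 promoters of the same length hold as many or more. Their GC contents are 61.7% and 62%. RefSeq promoters were matched for 22 of the 39 Hox genes, with a median of 13.5 CG dinucleotides beside 7 over all promoters. The 9 matched promoters of genes at 1 CPM or more had 4 to 29 (median 13), and the 7 matched promoters of genes with no count had 4 to 45 (median 15). CG counts of Hox genes at 1 CPM or more and of those with no count therefore overlapped over most of their range. Some matched starts lie far from the GENCODE gene start, among them Hoxc4 (15461 bases) and Hoxd4 (10049 bases, with 4 CG dinucleotides). Methylation was not measured.

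**Figure D3:**
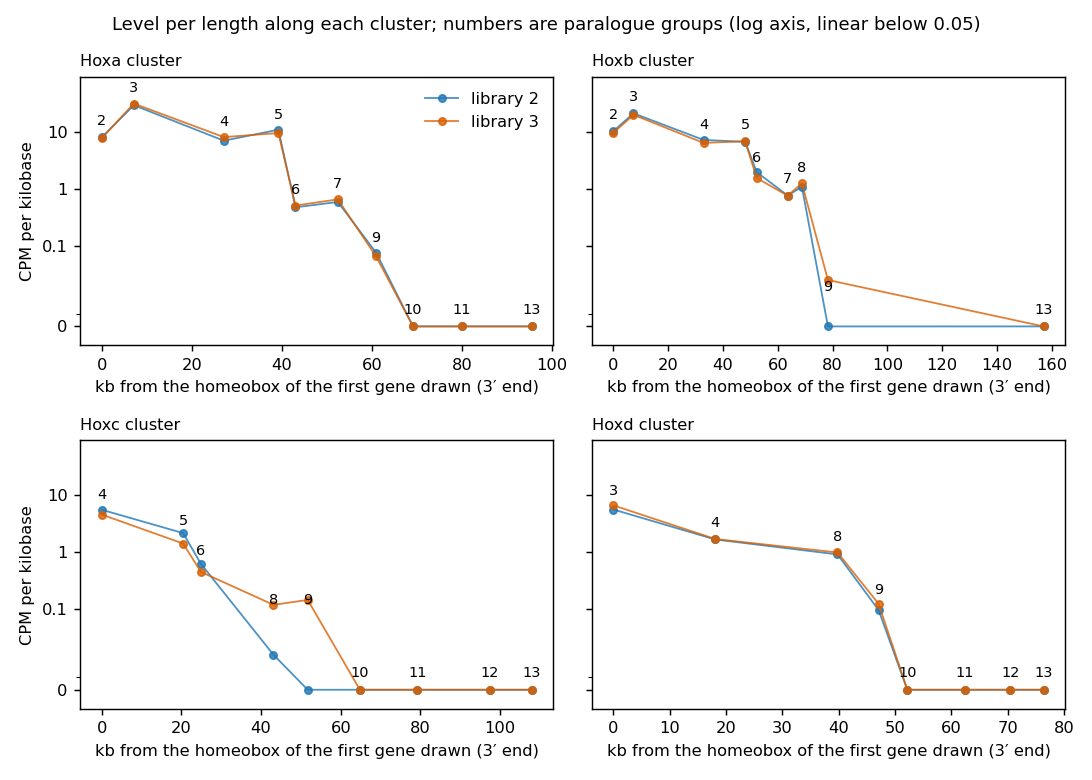
CPM per kilobase (y, log axis that is linear below 0.05) against the distance in kb of each gene's homeobox from that of the first gene drawn in its cluster (x, groups 2 to 13), for library 2 (blue) and library 3 (orange), with the paralogue group above each point. In Hoxa the level falls from 10.8 and 9.45 at Hoxa5 to 0.472 and 0.507 at Hoxa6, and in all clusters it reaches 0 from group 10 on.

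Genes of groups 7 and 8, which pattern the thoracic region, ranged from 1 read to 1.73 CPM. Hoxb7 missed the threshold narrowly with 19 and 22 reads, 0.979 and 0.975 CPM. Hoxa7 had 0.425 and 0.471 CPM, and the antisense gene Hoxaas3 (50.9 and 42.6 reads) overlaps 20.4% of its exons. Hoxb8 stood at 1.24 and 1.42 CPM (1.33 ± 0.128), just inside the threshold with 24 and 32 reads, and Hoxd8 stood at 1.6 and 1.73 CPM (1.66 ± 0.0922). Hoxc8 had 1 and 5 reads. At these counts the Poisson intervals reach far. That of Hoxb8 in library 2 was 0.792 to 1.84 CPM and that of Hoxb7 0.59 to 1.53 CPM, so the side of the threshold on which either gene fell is within counting error.

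The genes of groups 9 to 13, which pattern the lumbar to tail region, the limbs and the hindgut, were without counts or had at most 6 reads in a library. In group 9, Hoxd9 had 4 and 6 reads (0.206 and 0.266 CPM), Hoxa9 had 3 and 3, Hoxb9 had 0 and 2, and Hoxc9 had 0 and 4.94. By median length the fall from Hoxd8 to Hoxd9 was 9.42-fold and 7.9-fold per kilobase. It was smaller by merged exon length, by which Hoxd8 had 0.582 and 0.63 CPM per kilobase. Its size is uncertain, since the Poisson intervals of Hoxd9 were 0.0562 to 0.528 and 0.0976 to 0.579 CPM. No count was found for Hoxa10, Hoxa11, Hoxa13, Hoxb13, Hoxc10, Hoxc11, Hoxc12, Hoxc13, Hoxd10, Hoxd11, Hoxd12 or Hoxd13. A count of 0 lies under the floor of 3 counts, and its exact Poisson 95% interval reaches 0.19 CPM in library 2 and 0.163 CPM in library 3, so the transcripts were not detectable at this depth. The exon stretch that Hoxc10 shares with Hoxc5 gave no count to Hoxc10, while Hoxc5 had 122 and 93 reads.

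By median length, the order of the genes by level per kilobase began with Hoxa3 and Hoxb3. Hoxa5 and Hoxb2 came next and overlapped, as did Hoxa2 (7.82 ± 0.189) and Hoxa4 (7.47 ± 0.766). Hoxb4 (6.74 ± 0.575) overlapped with Hoxa4, Hoxb5 (6.69 ± 0.121) and Hoxd3, and Hoxc4 (5.02 ± 0.683) followed below them. Hoxc5 (1.78 ± 0.524), Hoxb6 (1.74 ± 0.287) and Hoxd4 (1.68 ± 0.0228) overlapped. Hoxb8 (1.16 ± 0.112) and Hoxd8 (0.946 ± 0.0524) came below these by median length. Their order turned by longest coding transcript (0.504 ± 0.0486 and 0.631 ± 0.035) and by merged exon length, and each rests on 24 to 39 reads per library.

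The 2 libraries differed in their Hox genes about as much as in all genes. The median fold in either direction was 1.1 for the 16 Hox genes at 1 CPM or more and 1.08 for all 16712 genes at that level. With 1 library on each side there is no test, and the intervals given are 95% intervals for counting error (exact, Clopper-Pearson). Of the 16 genes at 1 CPM or more, 1 was past 1.5-fold, beside 3.88% of 16712 genes at that level (2.52% higher in library 2 and 1.36% higher in library 3). This was Hoxc5, with 6.29 CPM against 4.12 CPM, 1.53-fold higher in library 2 (1.16 to 2.02). With TMM factors the same fold was 1.494 and no Hox gene was past 1.5-fold. Its neighbour Hoxc4 was 1.21-fold higher in library 2 (0.999 to 1.47). In the opposite direction, the ratio of library 2 to library 3 was 0.847 for Hoxd3 (0.714 to 0.998) and 0.865 for Hoxa4 (0.721 to 1.04). The interval lay wholly above 1 for 1 of 16 Hox genes (Hoxc5), beside 12.7% of all genes at that level. It lay wholly below 1 for 1 (Hoxd3), beside 10.3%. Hoxd3 had 247 and 340 reads, while Gm28230, on the same strand over 53.1% of its exons, had 54.4 and 34.4. The Hoxd3 ratio thus depends on how the counting divided these reads. The median ratio was 1.01 for the Hox genes and 1.01 for all genes, with 8 Hox genes higher in each library.

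**Figure D4:**
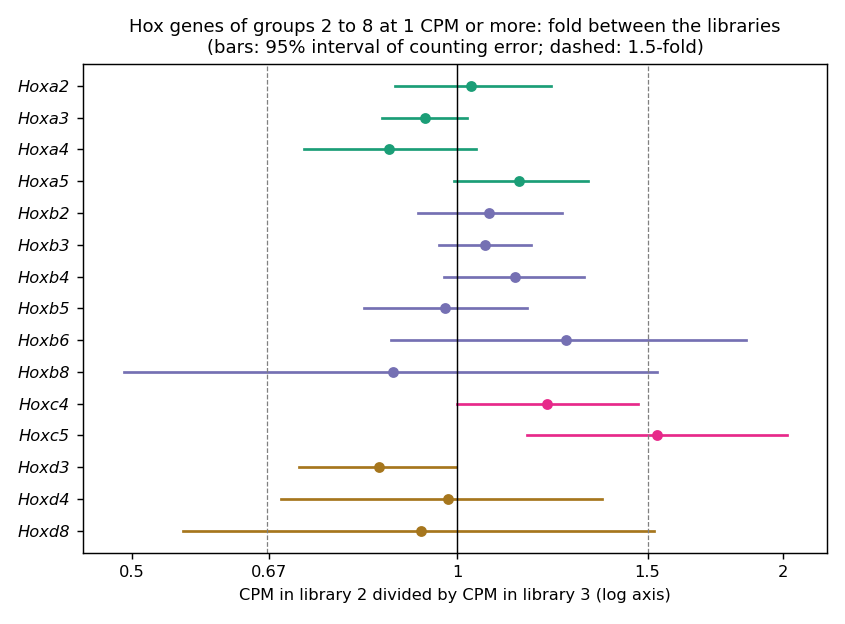
CPM in library 2 divided by CPM in library 3 (x, log axis) for 15 Hox genes of groups 2 to 8 that reached 1 CPM in each library (y, coloured by cluster), with bars for the exact 95% interval of counting error and dashed lines at 1.5-fold. Hoxc5, at 1.53, is the single point past a dashed line.

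Markers of other tissues moved between the same libraries. Of the liver list, Alb stood at 4.38 and 11.8 CPM and Afp at 3.61 and 12.2 CPM, 2.7-fold and 3.38-fold higher in library 3. The skeletal muscle gene Acta1 stood at 5.15 and 2.35 CPM, 2.19-fold higher in library 2, and the 5 muscle markers summed to 15.3 and 11.5 CPM. The epithelial gene Atp4a, a subunit of the gastric proton pump, stood at 23.2 and 35.5 CPM, 1.53-fold higher in library 3. All 5 stomach mesenchyme markers were higher in library 3, with a median ratio of library 2 to library 3 of 0.871. Their part in the values of Hoxc5 and Hoxd3 was not tested. Markers of the trunk neural tube and dorsal root ganglia, tissues that transcribe Hox genes strongly, summed to 60.9 and 59 CPM, most of it from Isl1 (53.8 and 52.6 CPM), with Olig2 and Neurog1 at 0, and the enteric neuron and glia markers summed to 140 and 146 CPM with all 5 at 1 CPM or more. The kidney list summed to 60 and 74 CPM, most of it from Six2 (36 and 49.5 CPM), with Pax2 at 2 and 0 reads. What share of the Hox reads came from each cell type was not tested.

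Partners of Hox proteins were present in both libraries. TALE-class homeodomain cofactors bind DNA together with Hox proteins, and 8 of 9 reached 1 CPM in each library. Pbx3 stood at 98.7 ± 2.02 and Meis2 at 57.2 ± 1.14 CPM per kilobase, beside 30 ± 1.44 for Hoxa3. Pbx4 was the ninth, with 7 and 33 reads (0.361 and 1.46 CPM), and was left out of the fold count by the threshold. None of the 8 at 1 CPM in both libraries was past 1.5-fold, beside 3.88% of all genes at that level. Between the genotype labels edgeR called none of the 9, as it called no gene in any list. The ParaHox genes, which arose from the same ancestral set as the Hox genes, were nearly silent. Only Pdx1, a regulator of the posterior foregut, passed 1 CPM (2.54 ± 0.0416 CPM per kilobase). Cdx2, the intestinal regulator, had 7 and 2 reads, and Cdx1, Cdx4, Gsx1 and Gsx2 had no count. The Evx genes adjoin the 5′ ends of Hoxa and Hoxd, and they followed their neighbours, with 1 and 0 reads for Evx1 and no count for Evx2.

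All genes measured beside the clusters had reads. Of 10 neighbours measured, 9 reached 1 CPM in each library, led by Hnrnpa1, which encodes an RNA-binding protein (285 ± 27.5 CPM per kilobase), and Cbx5, which encodes a heterochromatin protein (163 ± 1.21). Of 18 non-coding RNA genes within the clusters, 4 reached that level. The highest were Hoxaas2 (14.5 and 14.4 CPM), antisense to Hoxa3, and Hoxb3os (5.43 and 4.82 CPM), antisense to Hoxb3, followed by Hotairm1 (2.53 and 2.39 CPM) and Hoxaas3 (2.62 and 1.89 CPM). Another 9 had no count, among them Hottip, Hotair and Hoxa11os, which lie towards the 5′ ends of their clusters. The others of these 9 were the miRNA genes Mir10a, Mir10b, Mir196a-1, Mir196a-2, Mir196b and Mir615. The libraries were of total RNA and were not selected for small RNA. The 4 non-coding genes at 1 CPM or more all overlap exons of Hox genes that had reads too.

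Genes that maintain or set Hox transcription were present in both libraries. Polycomb complexes keep Hox genes silent through histone marks, and all 12 genes listed for PRC2 and all 11 for PRC1 were at 1 CPM or more. Rbbp7 (109 ± 8.43 CPM per kilobase) and Rbbp4 (61.8 ± 2.15) led the first list, and Phc2 (104 ± 2.88) and Bmi1 (54 ± 0.486) the second. The Trithorax genes and histone H3K27 demethylases, which oppose this silencing, were also at 1 CPM or more in 11 of 11 cases, led by Kmt2d (74.3 ± 0.196) and Kmt2c (46.4 ± 1.65). Of 10 upstream regulators of Hox genes, 9 were at that level, led by the retinoic acid receptors Rarg (57.9 ± 3.91) and Rara (32.6 ± 0.196). No gene of these lists at 1 CPM or more in each library was past 1.5-fold, beside 3.88% of all 16712 genes at that level. With so low a share over all genes, this sets these lists apart from other genes in no way.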

How the data were processed

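RNA-seq of 4 stomach samples was analysed, from mouse embryos at stage E15.5 as the design text gives it. The deposited table holds the authors' estimated counts for each Ensembl gene, with no scaling for depth. The submitters' processing notes name FastQC 0.10, Trimmomatic 0.33 and Salmon 1.8.0 beside edgeR, with GRCm38 and mm10 as builds. Their roles, the transcript index and the strand setting were not given in the sources used here. Samples were grouped by the genotype label and matched to columns by title, and 2 further columns without a name were not used. Whether each header name stands over its own column is not settled. Totals were 19537211 and 22713416 (Fgf9_null) and 19269851 and 22425865 (Fgf9_het).

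After a chi-square check, columns with the same replicate number were averaged as 1 library. Within each number, the columns' deviations from the mean of their group had a correlation of 0.999, so the numbers, taken from the titles, pair the columns. CPM was computed on column totals. Lengths and exon overlaps come from GENCODE M21, in which 50870 of 51098 genes were found. Counts were rounded for edgeR 4.0.16 in R 4.3.3 (TMM, filterByExpr, quasi-likelihood test, Benjamini-Hochberg at 0.05), with DESeq2 1.42.0 and limma 3.58.1 as alternatives. Its p-values reflect the spread between columns only, not between embryos. The edgeR test and the chi-square statistic were also run on simulated counts, with the outcome not reported here. Intervals (95%) and the floor of 3 counts describe counting error alone.

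The members and the 19 related lists (138 symbols, 4 of them without a row in the table) were chosen with earlier results of these data known. All 39 Hox genes entered the counts and sums; a few genes and sequences are not reported here. Of each related list the rule took the 2 members highest per length (by CPM for non-coding RNA genes) and those past 1.5-fold, though not every such marker is named. Genes named beyond that rule were chosen after their values were seen. Alternatives tried were other normalization, filters, tools, thresholds, transcript lengths, label columns and left-out samples.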

Additional observations from a re-analysis of the deposited data

How the results depend on the processing

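In the genotype comparison, every alternative called 0 Hox genes (RLE factors, other filters, DESeq2, limma-voom and leaving out each sample in turn, range 0 to 0). With the replicate number as a block, since the numbers pair the columns, edgeR again called 0 of 19 Hox genes, and 6 genes (0.03%) in the whole table instead of 0, while DESeq2 called 3. Leaving out 1 sample gave 1 to 2 called genes in the whole table. The count of Hox genes that reached 1 CPM in each library was 16, and 13 to 18 over all alternatives. It was 16 without either library. The count past 1.5-fold between the libraries was 1, but 2 at the lower threshold tried (Hoxb6 and Hoxc5), 0 at 2-fold and 0 with TMM factors, so the Hoxc5 result rests on the scaling. It has no value without either library. The share of Hoxa, 47.4%, was 45.7% with the longest coding transcript and 42.1% without length. That of Hoxb, 39.1%, was 37.7% with merged exons and 41.3% without length. That of Hoxc, 6.18%, was 8.39%, 7.58% and 7.64% with merged exons, the longest transcript and no length, and that of Hoxd, 7.31%, was 8.89% without length. In the same order of lengths, groups 1 to 3 held 45%, 54.3% and 59%, and groups 4 to 8 held 54.7%, 45.5% and 40.8%. These shares moved because the length in the denominator was changed. Leaving out a library gave 46.4% to 48.4% for Hoxa, 38.2% to 40% for Hoxb, 5.54% to 6.82% for Hoxc, 6.8% to 7.82% for Hoxd, 61.1% to 62.7% for groups 1 to 3, 37% to 38.8% for groups 4 to 8 and 0.142% to 0.309% for groups 9 to 13. Leaving 5 structured RNA genes out of the totals raised the CPM of the 16 genes by 1.205 to 1.206 times. Depth limits what can be said of groups 9 to 13 and of genes near 1 CPM, and 2 libraries of unsettled genotype limit everything else.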
